A study of Homo sapiens with 12 samples.

Results

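The KHDC and DPPA5 locus is a cluster of 5 genes of oocytes and early embryos on chromosome 6, KHDC1L, KHDC1, DPPA5, KHDC3L and OOEP. They were taken by name, with 300 kb on either side, and make up 5 of the 58419 annotated genes (19821 of them protein-coding) on chromosomes 1 to 22 and X. All 5 were found in RefSeq on the GRCh38 assembly (hg38), in that order along the chromosome, from 73223544 to 73395163, with gaps of 15.8, 42.7, 8.38 and 4.38 kb between neighbours. The window with its flanks ran from 72923544 to 73695163, a length of 771.6 kb.

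The study mapped nucleolus-associated domains (NADs), the chromosomal DNA that is recovered with purified nucleoli, in untreated H9 cells, an established line of human embryonic stem cells. The 12 libraries were nucleolar DNA of naive cells kept in RSeT medium, nucleolar DNA of primed cells kept in mTeSR medium, and whole-cell DNA of naive and of primed cells, with 3 libraries each. The files hold a naive and a primed list of NAD regions, with no score and no value per library. Each value below is therefore a single value without a replicate error, and the cell states could not be set against each other by a test. The depth of the libraries is unknown. All region limits lie on a 10 kb grid, which is the finest scale of any statement here. No transcript was measured in these files, so the labelled cell states could not be checked against marker genes and the expression of the genes is not known from them.

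As background, the KH domain is a fold that binds RNA, and the 5 genes encode a family of short KH-domain or KH-like proteins. KHDC3L and OOEP are parts of the subcortical maternal complex, an assembly of oocyte proteins that the embryo inherits and needs for its first divisions. DPPA5 is a marker of pluripotent cells, used in human cultures as a marker of the naive state, and KHDC1L is among the genes transcribed in the 8-cell embryo. Chromatin at the nucleolus is mostly of a silent kind, though a gene outside them is not for that reason active.

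The start regions of the genes, where transcription begins, are shown first because they differ in whether they lie inside a region, across its edge or outside both lists. Each run holds 250 bases before and 50 bases after a RefSeq start site on GRCh38.p14, written 5′ to 3′ on the gene's own strand. Capitals mark the bases that lie in a NAD of either list, and in these runs every capital belongs to a naive NAD.
KHDC3L, chr6:73362408-73362707, plus strand: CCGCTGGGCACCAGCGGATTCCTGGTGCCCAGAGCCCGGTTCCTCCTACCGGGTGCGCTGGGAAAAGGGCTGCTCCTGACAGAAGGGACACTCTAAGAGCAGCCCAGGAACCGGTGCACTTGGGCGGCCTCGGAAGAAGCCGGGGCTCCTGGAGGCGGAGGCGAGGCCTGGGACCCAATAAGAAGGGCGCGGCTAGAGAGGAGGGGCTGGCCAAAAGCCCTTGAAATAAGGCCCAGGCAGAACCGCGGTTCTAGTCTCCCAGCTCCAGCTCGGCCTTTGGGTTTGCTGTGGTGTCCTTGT
OOEP, chr6:73369848-73370147, minus strand: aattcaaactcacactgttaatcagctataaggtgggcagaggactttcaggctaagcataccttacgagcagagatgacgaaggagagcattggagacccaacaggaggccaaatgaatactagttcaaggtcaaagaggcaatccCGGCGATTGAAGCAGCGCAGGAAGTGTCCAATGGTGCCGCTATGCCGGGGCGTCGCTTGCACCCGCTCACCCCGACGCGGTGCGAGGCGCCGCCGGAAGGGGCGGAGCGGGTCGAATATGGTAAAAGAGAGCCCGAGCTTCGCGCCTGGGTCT
KHDC1, chr6:73310110-73310409, minus strand: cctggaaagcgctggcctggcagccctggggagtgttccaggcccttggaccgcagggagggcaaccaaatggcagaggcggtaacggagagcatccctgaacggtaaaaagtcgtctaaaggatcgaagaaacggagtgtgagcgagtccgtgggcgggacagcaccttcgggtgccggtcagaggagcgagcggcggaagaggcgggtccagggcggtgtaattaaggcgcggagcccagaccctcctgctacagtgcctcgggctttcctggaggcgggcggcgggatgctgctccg
DPPA5, chr6:73354227-73354526, minus strand: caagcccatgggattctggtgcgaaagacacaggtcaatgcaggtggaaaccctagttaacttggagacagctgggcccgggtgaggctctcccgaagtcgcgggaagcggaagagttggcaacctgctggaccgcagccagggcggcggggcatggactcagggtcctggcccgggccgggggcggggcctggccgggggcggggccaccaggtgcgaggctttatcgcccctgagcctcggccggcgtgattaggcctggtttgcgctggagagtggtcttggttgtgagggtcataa
KHDC1L, chr6:73225447-73225746, minus strand: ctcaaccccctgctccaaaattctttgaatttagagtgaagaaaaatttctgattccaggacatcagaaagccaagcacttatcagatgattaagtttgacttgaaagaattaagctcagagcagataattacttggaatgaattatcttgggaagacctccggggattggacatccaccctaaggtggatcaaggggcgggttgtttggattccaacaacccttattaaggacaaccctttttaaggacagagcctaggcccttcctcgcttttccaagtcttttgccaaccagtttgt

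The start regions differed in their position relative to NADs. That of KHDC3L was in a naive NAD over all 300 bases and lay 27.3 kb from the nearest primed NAD. That of OOEP lay across the edge of the same naive NAD, with 153 bases inside it and 147 bases outside, and was 19.9 kb from a primed NAD. The start region of KHDC1 was outside both lists. It began 109 bases beyond the end of a primed NAD, a distance far below the 10 kb grid, and was 49.6 kb from the nearest naive NAD. A second KHDC1 start region further inside the gene (73263147 to 73263446) was also outside both lists, 3.15 kb from a naive and 36.6 kb from a primed NAD. The DPPA5 start region was 5.47 kb from a naive and 24.2 kb from a primed NAD, and that of KHDC1L 14.3 kb and 45.4 kb. Of these 6 start regions, 2 touched naive NADs and 0 touched primed NADs. Over all 34961 such start regions of the 23 chromosomes, 41.5% touched naive and 61.9% touched primed NADs.

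The base composition of the 6 start regions is given next, and a link to NADs was not tested. The KHDC3L run had 64.3% G and C and 16 CpG sites, with a ratio of observed to expected CpG of 0.522, and the DPPA5 run had 66.0%, 20 sites and a ratio of 0.644. OOEP had the highest CpG ratio of the 6, 0.958, with 57.0% G and C. The KHDC1 runs, outside both lists, had 65.0% and 71.7% G and C, with ratios of 0.825 and 0.833. KHDC1L was the poorest of the 6 in G and C, at 42.7% with 3 CpG sites and a ratio of 0.220. Over all start regions the medians were 58.7% and 0.580. The GC box GGGCGG, bound by SP1 and KLF factors, was present on either strand in 5 of the 6 runs, against 45.0% of all start regions. That share is not matched for G and C content. The run without it was the KHDC1 run further inside the gene. DPPA5 and the other KHDC1 run held 3 copies each. Those of DPPA5 began 109, 69 and 52 bases before its start site. The CCAAT box, bound by NF-Y, was found in 3 of 6 (KHDC1L, KHDC3L and OOEP), against 34.6%. In KHDC3L and in OOEP a copy began 76 bases before the start site. The TATA box (TATAAA, in 11.5% of all start regions), the bicoid-type homeobox motif (TAATCC, 6.34%), the octamer (ATGCAAAT, 1.77%) and the DUX4 core motif (0.157%) were not in any of the 6 runs on either strand. These matches are letters in a window, not sites shown to be bound.

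Across whole gene bodies, 3 of the 5 genes touched naive NADs, against 76.8% of all coding genes and 75.1% of those on chromosome 6. In primed NADs 2 of 5 did, against 81.8% and 70.2%. KHDC3L touched a naive NAD alone, as did 11.6% of all coding genes. KHDC1 and OOEP touched NADs of both lists (65.2% of all coding genes), and DPPA5 and KHDC1L touched neither (6.57%). OOEP touched a primed NAD only through transcripts that begin upstream of the start site shown above. The median share of the gene body was 5.43% in naive and 0% in primed NADs, where all coding genes had medians of 35.6% and 75.8%. Summed over the 5 genes, 21.6 kb of 100.4 kb lay in naive NADs (21.6%) and 15.2 kb in primed NADs (15.1%). With only 5 genes, and with gene length setting how easily a region is touched, these shares are a description.

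KHDC3L, whose product joins the subcortical maternal complex and whose loss in women is a known cause of recurrent hydatidiform mole, is 1.51 kb long (73362658 to 73364171). It had 100% of its body in naive NADs and 0% in primed NADs. A single 10 kb region of the naive list (73360001 to 73370000) held the gene, and the nearest primed NAD was 25.8 kb away. The gene was therefore read from 1 bin of the grid. A body wholly in naive and not at all in primed NADs was found for 1.77% of all coding genes, 4.89% of those on chromosome 6 and 8.66% of the 704 coding genes that are 1 to 2 kb long.

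OOEP, the oocyte-expressed protein of the same complex, spans 26.6 kb with its longest transcripts (73368555 to 73395163, minus strand). It had 5.43% of its body in naive NADs and 19.4% in primed NADs. The naive part was 1.45 kb at the 3′ end of the annotated body (73368555 to 73370000), in the same region as KHDC3L, and it took in the start site shown above, at 73369897. The primed part was 5.16 kb at the other end (73390001 to 73395163), upstream of that start site and inside the body only through transcripts that begin further upstream. The 2 lists thus touched the annotated body of OOEP at opposite ends, and no base of it lay in both. From the start site at 73369897 to its 3′ end, OOEP lay wholly in the naive region and in no primed NAD, as KHDC3L did.

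KHDC1, a KH-domain gene of oocytes and early embryos, is the longest of the cluster at 69.1 kb (73241314 to 73310378, minus strand). Its body had 27.1% in naive NADs and 14.5% in primed NADs. The naive part covered 18.7 kb at the 3′ end, from 73241314 to 73260000, and the primed part 10.0 kb near the 5′ end, from 73300001 to 73310000. Between them lay 40 kb in neither list. Along the annotated body this is the order seen in OOEP, with naive sequence at the 3′ end. Relative to the start sites shown above the genes differed. The naive NAD took in the OOEP start site, while the KHDC1 start region began 109 bases beyond the primed NAD. Both genes of 20 to 80 kb in the cluster were touched by the 2 lists with no shared sequence, which held for 11.0% of the 6789 coding genes of that length and 7.97% of all coding genes. OOEP is in this length class, and reaches a primed NAD, only through its transcripts that begin further upstream. In the same length class 85.6% touched naive and 82.2% primed NADs.

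DPPA5 (1.21 kb, 73353063 to 73354276) had 0% of its body in either list. Its nearest naive NAD was the region over KHDC3L, 5.72 kb away, and its nearest primed NAD was 23.1 kb away. KHDC1L (1.95 kb, 73223544 to 73225496), at the other end of the cluster, also had 0% in both, with a naive NAD at 14.5 kb and a primed NAD at 43.5 kb. Among the coding genes of 1 to 2 kb, 16.8% touched neither list, 48.7% touched naive and 73.9% touched primed NADs. Of the 3 genes of this length in the cluster, 1 touched naive and 0 touched primed NADs.

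**Figure D1:**
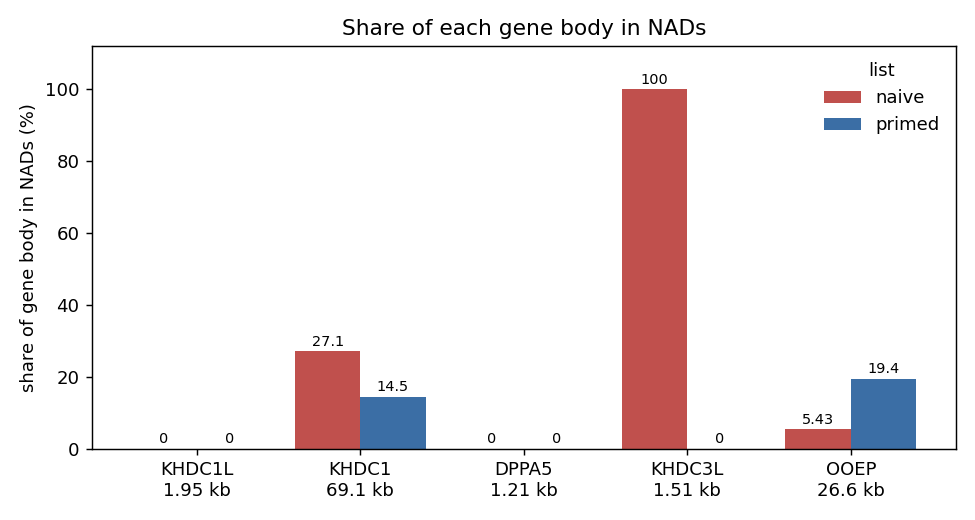
Share of each gene body in naive (red) and primed (blue) NADs, in percent, with genes in chromosome order and their lengths beneath. KHDC3L stood at 100% in naive and 0% in primed NADs, KHDC1 and OOEP were partly covered in both, and DPPA5 and KHDC1L were at 0% in both. Bars are single values from 1 list per state and have no error bars.

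Taken from the first to the last of the 5 genes, the cluster had more uncovered sequence than chromosome 6. It spans 171.6 kb, of which 30.0 kb lay in 2 naive NADs (17.5%) and 25.2 kb in 3 primed NADs (14.7%). No base lay in both, and 116.5 kb (67.9%) lay in neither, against 49.7% of chromosome 6. Of the 3 primed regions, 1 covered no coding gene. It lay between KHDC1 and DPPA5, from 73320001 to 73330000, over the pseudogenes SDCBP2P1 and PAICSP3.

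The window with flanks held 12 naive and 12 primed NADs, all of 10 or 20 kb. Of these, 9 naive and 8 primed regions were a single bin long. Naive NADs covered 150.0 kb or 19.4% and primed NADs 160.0 kb or 20.7%, a difference of -1.30 percentage points for naive minus primed. The sign of this difference depended on the flanks. It was 2.82 points with no flanks, 1.39 points with 100 kb flanks and 8.12 points with 500 kb flanks.

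**Figure D2:**
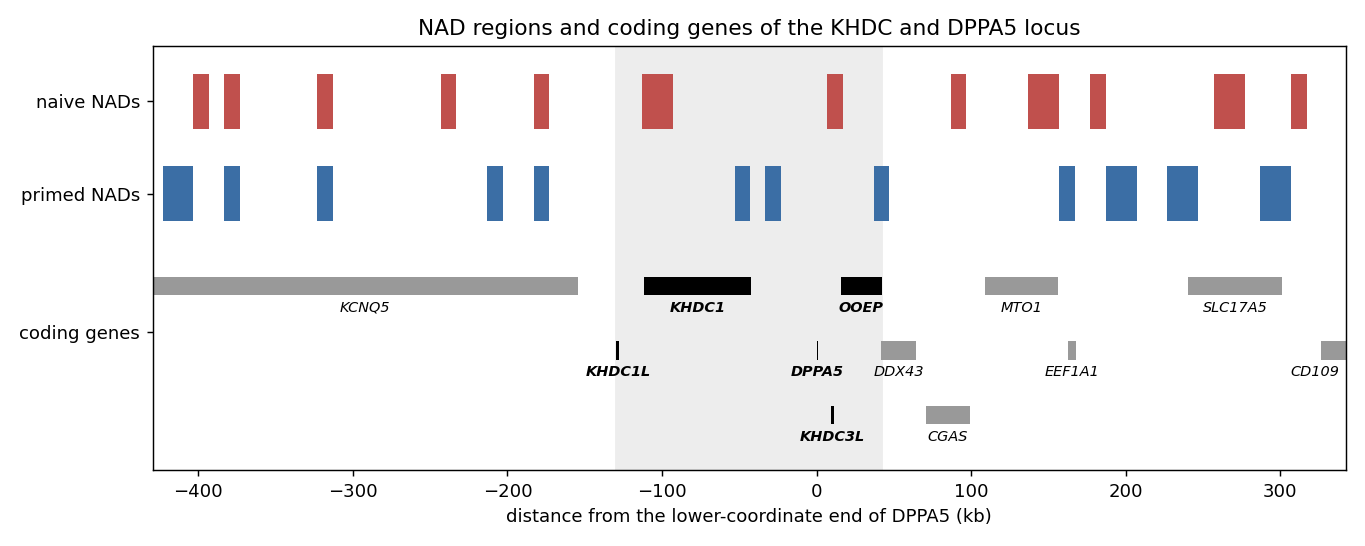
Map of the 771.6 kb window, with position in kb from the lower-coordinate end of DPPA5. Naive NADs are red, primed NADs blue, the 5 genes of the cluster black and other coding genes grey, and the shaded span runs from the first to the last of the 5 genes. The 12 naive and 12 primed regions are short, and the 3 bins they share all lie left of the shaded span.

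Shared sequence was confined to 1 side of the window. Naive and primed NADs coincided in 3 bins (72970001 to 72980000, 73030001 to 73040000 and 73170001 to 73180000), all inside KCNQ5, a voltage-gated potassium channel gene, and made up 3.89% of the window. The flank before the cluster had 16.7% in naive and 20.0% in primed NADs, with 10.0% in both. The flank after it had 23.3% and 24.9%, with 0% in both. Of the 12 naive regions, 3 shared sequence with a primed region, 4 only abutted one and 5 stood apart. For the 12 primed regions the numbers were the same. Over the 23 chromosomes, 53.2% of naive and 56.4% of primed regions shared sequence with the other list, and 12.1% and 23.4% only abutted it. These shares are not matched for coverage or region length. Naive and primed NADs covered 40.2% and 45.5% of the 23 chromosomes, against 19.4% and 20.7% of the window. The regions of the 23 chromosomes averaged 19.0 kb (naive) and 44.2 kb (primed), against 10 to 20 kb in the window.

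The 7 other coding genes of the window all touched NADs when counted over their whole bodies, but CD109 did so only beyond the window's end. Of the 12 coding genes in all, 8 touched naive and 7 touched primed NADs, 5 touched both, 3 naive alone, 2 primed alone and 2 neither. The shares of all coding genes were 76.8% in naive and 81.8% in primed NADs, 65.2% in both, 11.6% in naive alone, 16.6% in primed alone and 6.57% in neither. Next to OOEP, the start of DDX43, an RNA helicase gene of the germ line, shared its primed region with the far end of OOEP. DDX43 had 0% of its body in naive and 22.7% in primed NADs, and its start region (73394578 to 73394877) was in the primed NAD over all 300 bases. CGAS, which encodes the sensor of cytosolic DNA, had 35.0% in naive and 0% in primed NADs. MTO1, an enzyme of mitochondrial tRNA modification, had 40.5% in naive NADs and 0% in primed NADs, although a primed region began 0.764 kb beyond its end.

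That primed region covered EEF1A1, the gene of a translation elongation factor made in nearly all cells, which had 0% of its body in naive and 80.5% in primed NADs. EEF1A1 has many processed copies in the genome, so its reads may be hard to place, and this was not tested. SLC17A5, the lysosomal sialic acid transporter gene, had 33.0% in naive and 34.0% in primed NADs with no base in both, as in KHDC1 and OOEP, but here the naive region lay inside the gene and primed regions covered both of its ends. Its start region was in a primed NAD over all 300 bases. KCNQ5 had 29.5% and 19.1%, with 10.4% in both, and CD109, a surface protein gene, 33.5% and 13.4%, with 6.71% in both. These were the only coding genes of the window with shared sequence in their whole bodies. Both reach beyond the window, and every NAD that touched CD109 lay outside it.

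Set against chromosome 6, the window was low in naive NADs and near the middle in primed NADs. Chromosome 6 had 34.9% of its analysed sequence in naive NADs, 26.8% in primed NADs and 11.4% in both. Among 221 stretches of the same length tiled along the chromosome, of which some overlap the locus, the naive share ran from 13.0% to 70.2% with a median of 33.7%. It was below that of the locus in 6, equal to it in 2 and above it in 213. The lowest stretch (59414741 to 60186360) adjoins an equal one (58643121 to 59414740), and stretches of 50.3% and 56.8% flank them. How well reads can be placed there was not examined. The primed share ran from 0% to 98.7% with a median of 18.1%, and was below that of the locus in 118, equal to it in 2 and above it in 101. These counts place the locus on its chromosome and carry no test.

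**Figure D3:**
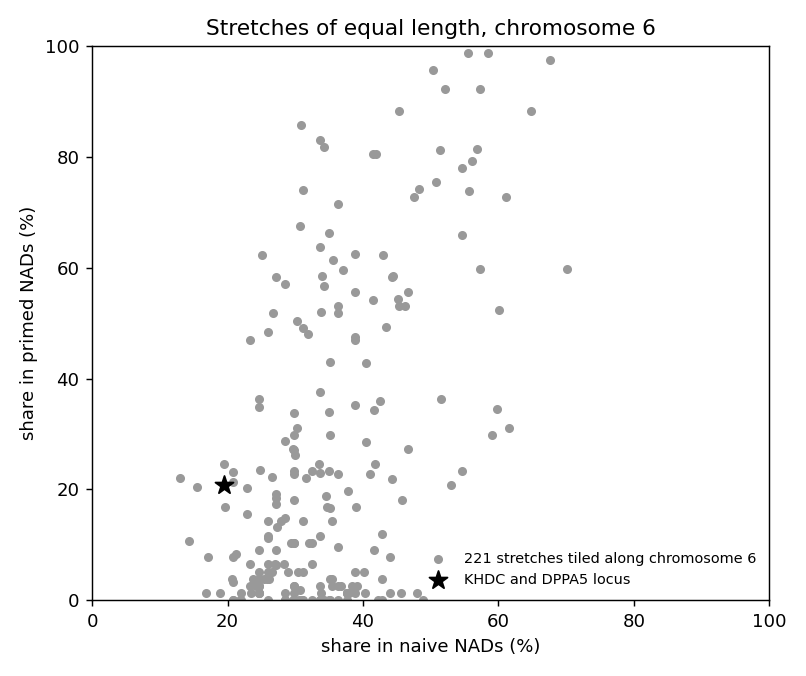
Share of sequence in naive NADs (x axis, percent) against the share in primed NADs (y axis, percent) for 221 stretches of chromosome 6 of the same length as the window. The locus, a star at 19.4% naive and 20.7% primed, lies near the left edge of the cloud and just above the median primed share of 18.1%.

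The low naive share was local. With flanks of 1000 kb the naive share was 32.1%, with 2500 kb 40.2% and with 5000 kb 42.9%, which is above the share of the chromosome. The primed share stayed between 13.5% and 24.0% at all 7 flanks tried, from 0 to 5000 kb. The share in both lists went up with each wider flank, from 0% to 10.3%. Long regions were far away. The nearest naive region of at least 50 kb began 654.8 kb after the cluster (74050001 to 74100000), and the nearest primed region of at least 50 kb ended 5104 kb before it (68020001 to 68120000).

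**Figure D4:**
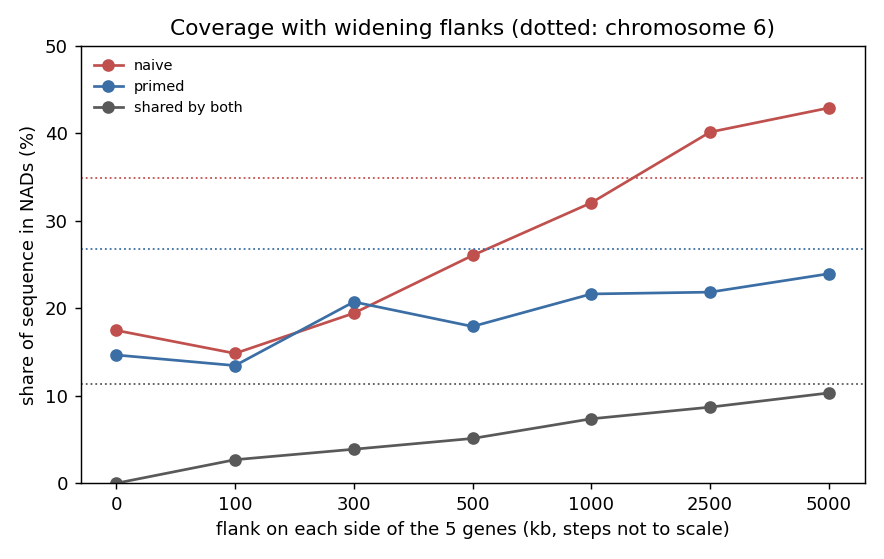
Share of sequence in naive NADs (red), primed NADs (blue) and both (grey), in percent, for the cluster with flanks of 0 to 5000 kb on each side, with dotted lines at the values for chromosome 6. The naive share is 14.8% at 100 kb and 42.9% at 5000 kb, while the primed share stays below its chromosome 6 value of 26.8% throughout.

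The 2 other loci of pluripotency genes examined were not alike. The window around DPPA2 and DPPA4 on chromosome 3, built the same way, had 13.9% in naive and 7.74% in primed NADs with 0% in both. The window around NANOG, DPPA3 and GDF3 on chromosome 12 had 32.4% in naive and 74.7% in primed NADs with 24.0% in both. Over the analysed sequence of the 23 chromosomes the shares were 40.2%, 45.5% and 22.1%. The shares of chromosomes 3 and 12 are not given here. With 1 list per state these differences were not tested.

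KHDC3L and OOEP were also set beside their partners in the subcortical maternal complex. Of the 8 genes of the complex examined (OOEP, KHDC3L, NLRP5, TLE6, PADI6, ZBED3, NLRP2 and NLRP7), 7 touched naive and 6 touched primed NADs, 5 of them both. These counts lie near the shares of all coding genes, 76.8%, 81.8% and 65.2%. The median share of the body was 52.7% in naive and 83.1% in primed NADs, but 4 of the 8 are on chromosome 19, where NLRP5, TLE6, NLRP2 and NLRP7 had 100% in primed NADs and 60.0%, 56.2%, 41.0% and 53.2% in naive NADs. ZBED3 (52.1% naive and 0% primed) joined KHDC3L in naive NADs alone, and the peptidylarginine deiminase gene PADI6 (0% naive and 66.1% primed) was in primed NADs alone. Of all coding genes, 11.6% were in naive NADs alone and 16.6% in primed NADs alone. Over its full annotated body, OOEP touched both lists with no base shared, as did 7.97% of all coding genes. The 4 genes on chromosome 19 lay wholly in primed NADs, so their naive parts necessarily lay within primed NADs.

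Among the 4 DPPA genes, named for their link to developmental pluripotency, 1 touched naive and 2 touched primed NADs, none of them both. Of all coding genes, 76.8% touched naive NADs, 81.8% primed NADs and 65.2% both. DPPA2 had 71.3% in naive and 0% in primed NADs, DPPA4 0% and 71.4%, and DPPA3 0% and 100%, so DPPA5 was the only gene of the 4 that touched neither list. Of 18 other oocyte genes, such as those of the egg coat and of oocyte growth factors, 12 touched naive and 14 touched primed NADs, 11 of them both and 3 neither, against 76.8%, 81.8%, 65.2% and 6.57% of all coding genes. Their median body shares were 8.96% in naive and 97.6% in primed NADs. BTG4, a factor in the clearance of maternal mRNA, was in naive NADs alone (12.4% of the body). H1-8, the oocyte linker histone gene (17.7%), ZAR1 and the egg coat gene ZP2 (both 100%) were in primed NADs alone.

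Copies of DPPA5 and OOEP elsewhere in the genome may affect how well reads of these genes can be placed, which was not examined. RefSeq lists 4 pseudogenes of DPPA5, 2 of OOEP and 1 of KHDC1. Those of DPPA5 and OOEP are 0.27 to 0.58 kb long, well below the 10 kb grid. DPPA5P3 on chromosome 10 and DPPA5P4 on chromosome 14 had 100% in both lists, and DPPA5P1 on chromosome 19 and DPPA5P2 on chromosome 15 had 0% in naive and 100% in primed NADs. DPPA5 itself was at 0% in both. OOEPP1 on chromosome X had 100% in both lists, and OOEPP2 on chromosome 12 had 0% in both. KHDC1P1, 28.9 kb from the nearest region of either list and inside the window, was at 0% in both. Over all pseudogenes, 46.9% touched naive and 55.5% touched primed NADs. How the authors treated reads that match several places is not given in the sources used here, so the part of such reads in the values of DPPA5 and OOEP was not tested.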

How the data were processed

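NADs were mapped from 12 libraries in 4 groups of 3, grouped by the labels. For each cell state the authors deposited a region list that gives chromosome, start and end on hg38 and no score. Per the submitters' processing notes, the tools were BWA, SAMtools 1.10 and SICER. Their roles, their settings, how 3 replicates became 1 list and the read depth are not stated. All limits were checked to lie on the 10 kb grid, and no regions touched.

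Coordinates were turned to 1-based form. Genes and start regions came from RefSeq tables on GRCh38.p14, the assembly that hg38 also denotes. Of the genes, 679 on other scaffolds were left out. A gene was counted in a NAD when any base of its body overlapped a region. For the share of chromosome 6, stretches of at least 500 kb with no region and no gene were to be left out. None was removed between bases 1 and 170750000, so that whole span of 170750 kb was analysed. The comparison stretches of the window's length were tiled along it without gaps. The interval arithmetic was tested on simulated data in 200 runs and used Python 3.11.15, numpy 2.4.6 and pandas 2.3.3, with drawings by matplotlib 3.10.9. The genes, lists, length classes and motifs were chosen with earlier results of these data known. Named genes are the 5 genes, all coding genes of the window, their numbered pseudogenes, and from each list those in 1 state only, with others where the text compares them. Alternatives to region merging, length and limits, gene rule and flank width were run.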

Additional observations from a re-analysis of the deposited data

How the results depend on the processing

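The counts of genes in NADs rest on regions of 1 or 2 bins. The 3 genes in naive NADs became 1 with regions of at least 20 kb (KHDC1) and with at least 50% of the body required (KHDC3L), and 0 with regions of at least 50 kb or trimmed by 10 kb at both ends. The 2 genes in primed NADs became 0 under each of these 4 settings and when only start regions were counted. Merging gaps of up to 10 or 50 kb left 3 and 2, and extending regions or genes by 10 kb gave 4 and 2, with DPPA5 the gene added in naive NADs. The naive and primed shares of the window were 45.4% and 48.6% with gaps of up to 50 kb merged, 7.78% and 10.4% with regions of at least 20 kb, 0% and 0% with regions of at least 50 kb or trimmed by 10 kb, and 49.2% and 50.8% with regions extended by 10 kb. Across the 4 other widths or parts of the window they stayed between 14.8% and 26.0% and between 13.5% and 22.5%. With at least 50% of the body required, 1 coding gene of the window remained in naive and 1 in primed NADs, and 6 of the 18 oocyte genes in naive and 11 in primed NADs. The share of all coding genes under this rule is not given here, so these counts cannot be judged against it. The median body shares of all coding genes were 35.6% in naive and 75.8% in primed NADs. Leaving out replicates was not run, because the lists hold no values per library. No paired analysis was possible because the deposited lists carry no values per replicate. The lists hold no score and the depth is unknown, so only the presence or absence of a called bin could be read.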

Other observations

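The window also holds 24 noncoding genes and pseudogenes, of which 5 touched naive NADs, 11 touched primed NADs and 11 touched neither. Of the 38598 such genes of the 23 chromosomes, 54.2% touched naive NADs, 60.8% primed NADs and 22.96% neither. These were looked at after the coding genes had been seen. OOEP-AS1, a long noncoding RNA gene on the strand opposite to OOEP, had 1.65% of its body in naive NADs and 0% in primed NADs, all of it at its own start. KHDC1-AS1 had 0% in naive and 3.67% in primed NADs, and C6orf147, which ends at the same base as KHDC1, had 0% in naive and 27.6% in primed NADs. The long noncoding RNA gene LOC122539213, which runs from KHDC1L to the start of KHDC1, had 23.1% in naive and 11.5% in primed NADs with no base in both. These are the same regions that touched KHDC1, so it is not a separate case. EEF1A1-AS1 had 19.0% in naive and 38.0% in primed NADs, again with no base in both. How many noncoding genes are touched by both lists with no shared base is not given here, so these cases cannot be judged against it.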
